A study of Mus musculus with 24 samples.

Results

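The lungs of mice dosed with rCNT were compared with the lungs of mice dosed with BayTubes, gene by gene. The samples were chosen by their titles, 3 that end in rCNT and 4 that end in BayTubes, which are 7 of the 24 samples of the series. All 7 came from female C57BL/6 mice aged 7 to 8 weeks that took in 10 µg of material a day by oropharyngeal aspiration, a route by which a drop of liquid put into the pharynx is inhaled. The droplet was 50 µl of saline (PBS), it was given on 4 days in a row, and lungs were collected 24 h after the final dose. By the labels, both groups therefore shared strain, sex, dose by mass, vehicle, route, days of dosing and hours after the final dose, and differed in the material. The labels give no time of day, and the groups also lay differently over arrays and slides, as described below. RNA of 2 mice was pooled into each sample. The 3 Ctrl samples, from mice given 50 µl of PBS by the same route, are used here to place both groups, and the 3 tCNT samples, from a further nanotube group, serve a side comparison. BayTubes is a trade name for multi-walled carbon nanotubes. The labels do not spell out rCNT or tCNT, whose usual readings are rigid and tangled carbon nanotubes, and values for tube length, width or surface are not used here. The samples are numbered as in their titles: rCNT 4, 5 and 6, BayTubes 17, 18, 19 and 20, and Ctrl 1, 2 and 3. Values are given in that order, as log2 signals of a gene's brightest spot on the array, and a difference of 1 is a doubling of the signal.

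Inhaled fibres and particles are met by alveolar macrophages and the airway lining, which release chemokines. CC chemokines that bind CCR2 draw in monocytes, eotaxins draw in eosinophils, and a group of CXC chemokines draws in neutrophils. In a type 2 response, IL-4 and IL-13 make macrophages express arginase and resistin-like proteins and turn airway secretory cells into goblet cells. The lung also keeps a circadian clock, a loop in which ARNTL and CLOCK switch on the genes Per, Cry and Nr1d, whose proteins switch ARNTL, CLOCK or their output off.

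The lungs given rCNT and those given BayTubes differed in 2157 of 16530 genes tested (13.0%), at an adjusted p under 0.05 in a limma fit over all 24 samples with dye as a term. Signals of 1322 genes (8.00%) were higher with rCNT and of 835 (5.05%) lower. The largest differences were upward: 45 genes (0.272%) were at least 4-fold higher, and only Selenbp1, Zfp931 and Dbp (0.0181%) were at least 4-fold lower. The median difference over all genes was 0.00, and the median standard error was 0.15. All 3 rCNT samples lay above all 4 BayTubes samples for 2030 genes (12.3%) and below them for 1269 (7.68%). Among the 1322 higher genes, the Ctrl mean lay below both groups for 888, between them for 417 and above both for 17. Among the 835 lower genes, it lay above both groups for 558, between them for 271 and below both for 6. For most genes called, rCNT thus stood further from Ctrl than BayTubes did on the same side. Against Ctrl, 3598 genes (21.8%) differed after rCNT and 526 (3.18%) after BayTubes.

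**Figure D1:**
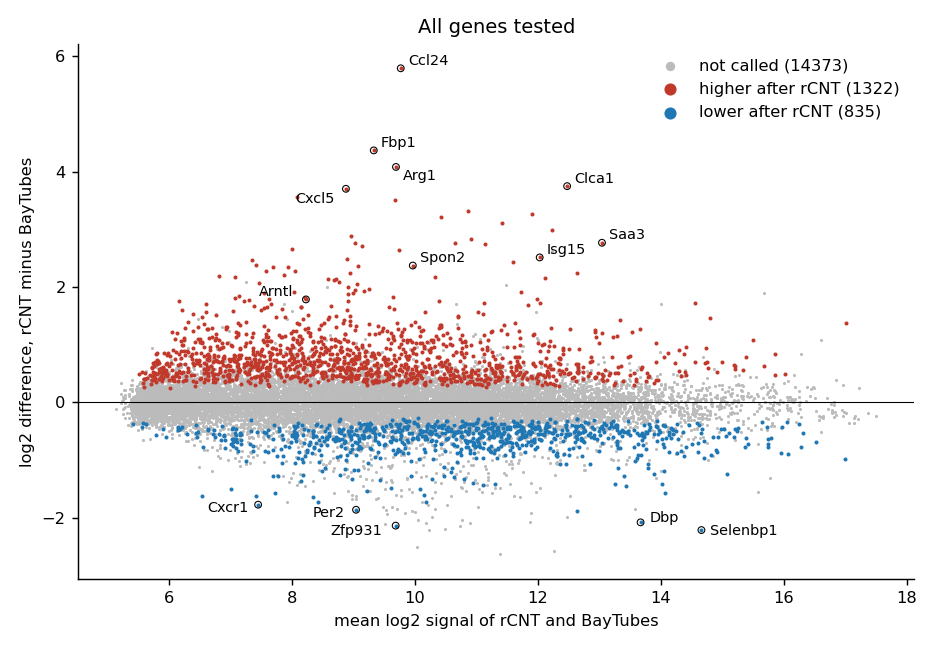
Each point is 1 of the 16530 genes tested. The x axis gives its mean log2 signal over both groups and the y axis the log2 difference, rCNT minus BayTubes. The 2157 genes called are coloured, 1322 above 0 and 835 below it, and the upward differences reach 5.79 for Ccl24.

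The number called depended on which samples and terms were in the fit. It was 986 without BayTubes 19, and from 1446 to 2597 with any other of the 7 samples left out. With only the 7 samples in the fit it was 317, with 248 higher and 69 lower. No array held an rCNT and a BayTubes sample together, and with array as a fixed term, which uses only contrasts within arrays, 46 genes were called, 35 higher and 11 lower. Of the 113 called genes named here, 71 kept their call with only the 7 samples and 20 with array as a fixed term, all in the same direction. The samples lay on 3 slides, with rCNT on all of them and BayTubes on slides 1 and 2. Slide 1 held rCNT 4 and BayTubes 17, 18 and 19, and slide 2 held rCNT 6 and BayTubes 20. Within slide 1 the difference had the same sign for 2149 of the 2157 genes, and within slide 2 for 2146. The genes were called from these same samples, so this agreement is no separate test of slide. With slide as a term, 3162 genes were called, 1598 higher and 1564 lower. Lung identity was as labelled, with Sftpc, the surfactant protein of alveolar type 2 cells, at 16.82 to 17.97 and Scgb1a1, the secretoglobin of club cells, at 17.28 to 17.47 over the 7 samples.

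Monocyte chemokines were the group with the highest median difference among the 58 gene lists examined. All 4 of them were higher with rCNT, with a median difference of 2.97, against 8.00% of all genes higher and a median of 0.00. The counts of every list below are likewise to be read beside the shares over all genes, 8.00% higher and 5.05% lower. Ccl7 measured 11.13, 11.24 and 12.15 with rCNT and 8.29, 7.07, 7.43 and 8.59 with BayTubes, a difference of 3.50 ± 0.31 (SE, n = 3 against 4; adjusted p = 1.7e-06) or 11.3-fold. Every rCNT sample was above every BayTubes sample, and BayTubes itself stood 1.49 above Ctrl (adjusted p = 0.00373). Ccl8 differed by 3.10, Ccl2, the main ligand of CCR2, by 2.83, and Ccl12 by 2.05. For each of these genes both materials were above Ctrl, so the groups differed in the size of the rise. The averaged level of the 4 genes over Ctrl was 4.37 to 5.12 in the rCNT samples and 1.25 to 2.27 in the BayTubes samples.

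Chemokines of the eosinophil and T helper 2 axis were also higher with rCNT, with a median of 1.59 over the list. Ccl24, an eotaxin, measured 12.03, 13.01 and 13.35 with rCNT and 6.67, 6.04, 6.91 and 7.36 with BayTubes. The difference of 5.79 ± 0.46 (adjusted p = 6.96e-07), or 55.3-fold, was the largest of any gene. BayTubes samples lay around the Ctrl mean of 6.25, and their own difference from Ctrl was 0.36 (adjusted p = 0.812). Ccl11, the other eotaxin, was 2.88 higher with rCNT, and Ccl17, a ligand of CCR4 on T helper 2 cells, 2.99 higher. Ccl22, the second CCR4 ligand, and Ccl1, which binds CCR8, were higher by 0.99 and 1.54. Both were dim, below the detection filter in 6 of the 10 rCNT, BayTubes and Ctrl samples, so the sizes of these differences are uncertain. The same holds for Cxcl3, Prg2, Retnlb, Itln1, Saa2, Orm2 and Il6 in the paragraphs that follow, with 3 to 5 of the 10 samples below the filter, and for Cxcl2, Il5 and Il13, with 6 or 7. The eotaxin receptor Ccr3 was 1.64 higher, at 8.28, 9.10 and 9.55 against 7.77, 6.63, 7.46 and 7.48. Of the 8 ligands and receptors tested in this list, 7 were higher and none lower, and 6 to 8 were higher with any 1 sample left out.

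Neutrophil chemokines and 1 of their receptors moved in opposite directions. Cxcl5 measured 10.05, 10.76 and 11.61 with rCNT and 6.76, 6.84, 6.98 and 7.23 with BayTubes, a difference of 3.70 ± 0.34 (adjusted p = 1.71e-06). Cxcl1, Cxcl3 and Cxcl2 were higher by 2.09, 2.18 and 0.83. For Cxcl2, only the rCNT samples of the rCNT, BayTubes and Ctrl groups were above the detection filter, so its call is no support apart from that filter. The receptor Cxcr1, in contrast, was lower with rCNT by 1.77 ± 0.34 (adjusted p = 0.00201). Its values were 6.07, 7.30 and 6.41 against 8.19, 8.50, 8.69 and 7.87, so no sample of one group reached the other. The Ctrl mean was 6.56, and Cxcr1 was thus above Ctrl after BayTubes, by 1.86 (adjusted p = 0.00141), while rCNT differed from Ctrl by 0.09 (adjusted p = 0.897). Of the 9 genes of this list, 4 were higher and 1 lower in the full fit and with any 1 sample left out. The ligands of CXCR3, which interferon induces, were higher too: Cxcl10 by 3.22 ± 0.52 (adjusted p = 0.000397) and Cxcl9 by 2.08 ± 0.42 (adjusted p = 0.00306).

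**Figure D2:**
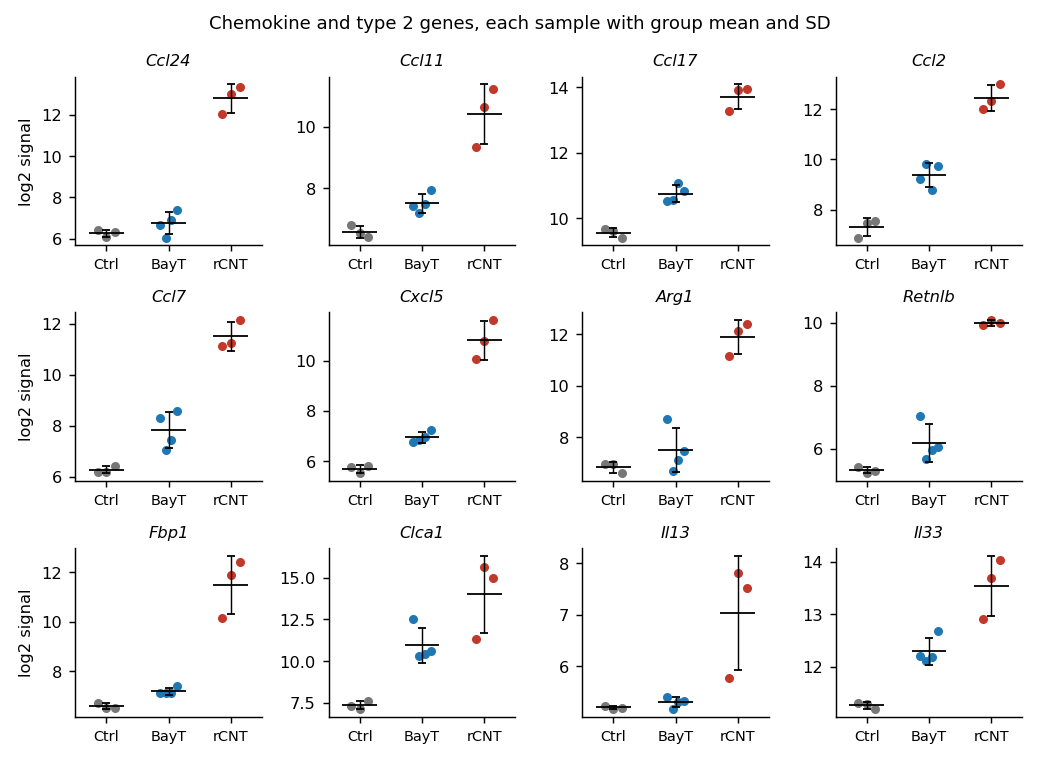
Log2 signal of 12 chemokine and type 2 genes in each sample of Ctrl, BayTubes and rCNT, with the group mean (line) and SD (bar). For Ccl24 the rCNT samples sit at 12.03 to 13.35 and the BayTubes samples at 6.04 to 7.36, and for Clca1 one BayTubes sample, at 12.51, lies above the lowest rCNT sample, at 11.34.

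Marker genes of granulocytes differed for some members only. Prg2, the eosinophil granule major basic protein, measured 8.08, 8.68 and 9.31 with rCNT and 6.77, 5.49, 5.86 and 6.01 with BayTubes, a difference of 2.46 ± 0.31 (adjusted p = 5.01e-05). Ear6, an eosinophil-associated ribonuclease, was above Ctrl by 1.31 after rCNT and by 1.20 after BayTubes, and the groups overlapped (difference 0.12, 95% interval -0.29 to 0.52, adjusted p = 0.753). Ear genes are near copies of each other, so their probes may share signal. Of 8 eosinophil markers 4 were higher, and 2 of 8 without BayTubes 18, BayTubes 19, rCNT 5 or rCNT 6. Among 13 neutrophil markers 4 were higher and 1 lower. Retnlg, a resistin-like protein of neutrophils, was 1.69 ± 0.35 higher (adjusted p = 0.00368) and Padi4, the enzyme that citrullinates histones in neutrophils, 0.81 ± 0.17 higher (adjusted p = 0.00383). Without BayTubes 19 or rCNT 5 the count of higher neutrophil markers was 2. In whole-lung RNA, more cells of a type and more RNA per cell cannot be told apart.

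The type 2 cytokine Il4 stayed near the Ctrl level after BayTubes, at -0.02 against Ctrl (adjusted p = 0.991). Il4 measured 6.89, 8.67 and 8.61 with rCNT and 6.69, 5.65, 6.45 and 6.16 with BayTubes, a difference of 1.84 ± 0.31 (adjusted p = 0.00055). Il13 measured 5.76, 7.82 and 7.52 against 5.40, 5.17, 5.30 and 5.31, a difference of 1.76 ± 0.28 (adjusted p = 0.000357). In both genes rCNT 4 was close to the BayTubes samples, and rCNT 5 and rCNT 6 carried the larger part of the difference. All BayTubes and Ctrl samples of Il13 were below the detection filter, so they do not show whether BayTubes changed Il13. Among these groups only the rCNT samples were above the filter, with rCNT 4 barely so. Il13 may thus have been tested only because rCNT was high, and its adjusted p is no support apart from that filter. Il5 was 0.90 higher. Of 10 type 2 cytokines and receptors 4 were higher and 1 lower in the full fit. With only the groups compared in the fit, limma called none of the 10 (lowest adjusted p = 0.0856), with 6 at an unadjusted p under 0.05. The alarmin Il33, released by damaged epithelium, was above Ctrl with both materials, by 2.31 after rCNT and by 1.09 after BayTubes, and 1.22 ± 0.20 higher with rCNT (adjusted p = 0.000503).

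Most arginase, resistin-like and chitinase-like genes were higher with rCNT as well. Whole-lung RNA does not show which cells expressed them. Arg1, the arginase that depletes arginine, measured 11.14, 12.13 and 12.40 with rCNT and 8.70, 6.70, 7.12 and 7.47 with BayTubes. The difference was 4.08 ± 0.47 (adjusted p = 1.63e-05), or 16.9-fold, and BayTubes 17 was the closest of its group to rCNT. Retnlb, a resistin-like molecule, measured 9.92, 10.09 and 9.98 against 7.04, 5.67, 5.94 and 6.06, a difference of 3.56 ± 0.31 (adjusted p = 1.48e-06). Chil4, a chitinase-like protein, was 2.43 higher and Pdcd1lg2, the PD-L2 ligand of PD-1, 2.20 ± 0.18 higher (adjusted p = 1.01e-06). Fbp1, fructose bisphosphatase, was 4.37 ± 0.48 higher (adjusted p = 1.22e-05), with 10.15, 11.88 and 12.43 against 7.09 to 7.40. Retnla, another resistin-like molecule and one of the brightest genes, rose in both groups, by 4.01 over Ctrl after rCNT and by 2.63 after BayTubes. In rCNT 5 it measured 17.97, the top of the signal range, so the rise after rCNT and its distance from BayTubes may be understated. Its difference of 1.38 (adjusted p = 0.0269) did not keep the call without BayTubes 18, BayTubes 19, rCNT 5 or rCNT 6, at 1.16 to 1.30 (adjusted p 0.0662 to 0.109). Of the 12 arginase, resistin-like and chitinase-like genes 9 were higher, and 6 without BayTubes 19, rCNT 5 or rCNT 6.

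Goblet cell genes were higher with rCNT than with BayTubes, with a median of 1.92 over the list. Slc26a4, the anion exchanger pendrin, measured 12.51, 14.01 and 14.21 with rCNT and 10.76, 9.42, 10.00 and 10.77 with BayTubes, with a Ctrl mean of 7.85. The groups did not overlap, and the difference was 3.27 ± 0.42 (adjusted p = 5.01e-05). Against Ctrl, BayTubes was higher for Slc26a4 (2.29, adjusted p = 0.00123) and Agr2 (1.94, adjusted p = 0.00079) and was not called for Muc5ac (1.07), Spdef (0.22), Clca1 (3.21) or Itln1 (0.63), with adjusted p of 0.0592 to 0.624. Agr2, which folds mucins, was 2.76 ± 0.33 higher (adjusted p = 2.75e-05), Muc5ac, a gel-forming mucin, 2.36 ± 0.39 higher (adjusted p = 0.000486), and Spdef, the transcription factor of goblet cells, 0.92 ± 0.14 higher (adjusted p = 0.000226). Clca1, a secreted goblet cell protease, measured 11.34, 15.63 and 15.01 against 12.51, 10.29, 10.44 and 10.58. BayTubes 17 lay above rCNT 4, and the difference of 3.75 ± 1.04 (adjusted p = 0.0213) did not keep the call without BayTubes 18, BayTubes 19, rCNT 5 or rCNT 6 (2.86 to 3.66, adjusted p 0.0606 to 0.103). Itln1, an intelectin, overlapped in the same samples, with 7.48 in rCNT 4 and 8.52 in BayTubes 17. Of 11 goblet cell genes 10 were higher, and 6 without rCNT 6. The averaged level over Ctrl was 2.16 in rCNT 4, 3.86 in rCNT 5 and 3.65 in rCNT 6, against 2.13 in BayTubes 17 and 0.93 to 1.04 in the other BayTubes samples.

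Acute phase genes were higher with rCNT, with 9 of 13 called and a median of 1.08. Saa3, the serum amyloid A made in the lung itself, was bright in both groups, at 14.56, 14.55 and 14.95 with rCNT and 11.60, 10.67, 11.52 and 11.78 with BayTubes, over a Ctrl mean of 8.08. The difference was 2.77 ± 0.57 (adjusted p = 0.00313), and BayTubes was itself 3.13 above Ctrl (adjusted p = 0.0012). Saa1 was 2.74 higher with rCNT, Saa2 1.80, and the orosomucoids Orm1 and Orm2 1.76 and 1.89. Against Ctrl, BayTubes was not called for Saa2 (0.51), Orm1 (0.61) or Orm2 (0.74), with adjusted p of 0.12 to 0.324. SAA genes, like the 2 Orm genes, are close in sequence, so their probes may share signal. None of the 13 was lower, and 7 to 9 were higher when any 1 sample was left out. The averaged level was 2.16 to 2.28 over Ctrl in the rCNT samples and 0.61 to 1.03 in the BayTubes samples.

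Il6, which drives the acute phase response, measured 8.02, 8.66 and 9.20 with rCNT and 6.41, 6.04, 6.01 and 6.43 with BayTubes, a difference of 2.38 ± 0.22 (adjusted p = 1.91e-06). Socs3, the feedback inhibitor of IL-6 signalling, was 1.06 ± 0.21 higher (adjusted p = 0.00211). Of 11 genes of the IL-6 family and its signalling 3 were higher and 8 not called, with a median of 0.36. Il1r2, the decoy receptor of IL-1, was 1.63 ± 0.29 higher (adjusted p = 0.00101), while Il18 was 0.81 ± 0.17 lower (adjusted p = 0.00325), at 8.61 to 9.17 against 9.60 to 9.94. These values show that members of the IL-1 family went in both directions. Of 14 IL-1 family genes 8 were higher and 1 lower, with 3 higher without BayTubes 19 or rCNT 6. Csf2, the growth factor GM-CSF, and Inhba, a subunit of activin A, were higher by 0.84 and 1.67. Their list went in both directions: of 12 growth and colony-stimulating factors 4 were higher and 2 lower, with a median of -0.04.

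For interferon-induced genes, rCNT stood above Ctrl on average and BayTubes at the Ctrl level on average. Of 23 genes tested 14 were higher with rCNT and none lower, with a median difference of 1.04, and 13 to 16 were higher with any 1 sample left out. The averaged level over Ctrl was 0.61 to 1.24 in the rCNT samples and -0.05 to 0.00 in the BayTubes samples. The BayTubes average mixes genes on both sides of Ctrl, such as Bst2 at -0.47 and Ifit1 at 0.21. Isg15, a ubiquitin-like protein that interferon induces, measured 13.48, 13.03 and 13.11 with rCNT, 11.20, 11.16, 10.69 and 10.37 with BayTubes and 11.25 on average in Ctrl. The difference was 2.51 ± 0.29 (adjusted p = 1.69e-05), and it was 2.86 within slide 1, 2.76 within slide 2 and 2.58 with slide as a term. Rsad2, the antiviral enzyme viperin, measured 9.97, 9.58 and 10.59 against 7.79 to 7.90, a difference of 2.25 ± 0.21 (adjusted p = 1.87e-06). Mx2, a dynamin-like antiviral GTPase, was 1.41 ± 0.15 higher (adjusted p = 6.8e-06). Bst2, or tetherin, was 1.26 ± 0.14 higher (adjusted p = 1.37e-05), and with BayTubes it was 0.47 under Ctrl (adjusted p = 0.0387). Ifit1, which binds foreign RNA, and Oas1a, which makes the activator of RNase L, were named after their values were seen, for their promoters; they were 1.62 and 1.73 higher.

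The start regions of interferon-induced genes often carry the interferon-stimulated response element (ISRE), here searched as GAAA, any 2 bases and GAAA on both strands in the 250 bases before each start site. It occurred in 2.98% of 32851 such windows of the RefSeq promoter table (GRCm38.p6). Of the 14 higher genes 10 were in the table and 6 of them carried it, and of all 23 tested 18 were in the table and 10 carried it. Matches are given as letters found, not as bound sites. The stretches printed here end at the start site or shortly before it, of genes that were higher with rCNT, and are read 5′ to 3′ on the strand of the gene, with the element in capitals (as TTTC, any 2 bases and TTTC where it lies on the other strand, and run together where matches overlap).
Isg15, chr4:156200819-156200938, minus strand: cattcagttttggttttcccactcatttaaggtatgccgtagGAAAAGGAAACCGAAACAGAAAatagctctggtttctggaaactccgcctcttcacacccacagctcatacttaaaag
Rsad2, chr12:26456453-26456602, minus strand: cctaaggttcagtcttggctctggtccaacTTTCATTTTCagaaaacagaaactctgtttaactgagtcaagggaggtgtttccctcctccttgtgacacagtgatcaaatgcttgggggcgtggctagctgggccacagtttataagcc
Ifit1, chr19:34640769-34640888, plus strand: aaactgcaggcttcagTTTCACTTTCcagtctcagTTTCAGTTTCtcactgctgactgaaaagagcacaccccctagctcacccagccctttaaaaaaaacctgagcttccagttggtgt
Oas1a, chr5:120907526-120907645, minus strand: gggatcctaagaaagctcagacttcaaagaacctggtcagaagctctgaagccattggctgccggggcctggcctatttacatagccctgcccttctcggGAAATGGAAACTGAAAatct

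Markers of recruited monocytes and macrophages differed by a median of 1.06, those of alveolar macrophages by 0.15 and those of T cells by 0.29. Mmp12, the macrophage elastase, measured 7.83, 9.10 and 10.38 with rCNT and 7.46, 6.36, 6.96 and 7.15 with BayTubes, a difference of 1.91 ± 0.43 (adjusted p = 0.00564). C1qa, a chain of complement C1q that macrophages make, was 1.17 ± 0.23 higher (adjusted p = 0.00237), and Plac8, a marker of inflammatory monocytes, 1.26 ± 0.27 higher (adjusted p = 0.0044). Fcgr2b, the inhibitory IgG receptor, and Cd14, the co-receptor for bacterial lipid, were higher by 1.76 and 1.03, while Mertk, which takes up dying cells, was 0.86 ± 0.16 lower (adjusted p = 0.00154). Of the resident alveolar macrophage markers, Fabp1 and Cidec, both of lipid handling, were lower with rCNT by 1.53 and 0.91, and 2 others were higher. Of 14 recruited monocyte and macrophage markers 7 were higher, and 4 without BayTubes 19 or rCNT 6. Of 16 alveolar macrophage markers 2 were higher and 2 lower, and without rCNT 4 those counts were 7 and 3. Their averaged level was 0.12 to 0.41 over Ctrl in the rCNT samples and 0.14 to 0.38 in the BayTubes samples. Among T cell markers, Tnfrsf18 (GITR), Pdcd1 (PD-1) and Tnfrsf4 (OX40) were higher by 0.88, 1.12 and 0.69. Of 16 T cell and regulatory T cell markers 5 were higher and 11 not called. The count was 3 without BayTubes 19 or rCNT 6, and 1 with only the groups compared in the fit. The complement genes Cfi and Cfp, encoding the inhibitor factor I and the activator properdin, were higher by 1.65 and 1.17.

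Genes of dividing cells were above Ctrl with both materials and further above with rCNT, and the number called depended on single samples. Of 26 mitosis genes 18 were higher, with a median of 0.95, and the count was 2 without BayTubes 19, 3 without rCNT 6 and 9 without BayTubes 18. Of 25 replication genes 14 were higher, and 4, 5 and 7 in the same order. With only the groups compared in the fit, none of the genes in either list was called by limma, at medians of 1.00 and 0.50, with 22 mitosis and 15 replication genes at an unadjusted p under 0.05. Ube2c, which tags mitotic cyclins for destruction, measured 10.90, 10.50 and 10.80 with rCNT and 9.82, 8.74, 8.88 and 9.66 with BayTubes. The difference was 1.39 ± 0.29 (adjusted p = 0.00388), over rises of 2.72 and 1.33 against Ctrl. Mcm5, part of the replicative helicase, and Ccne1, the cyclin of S phase entry, were higher by 1.01 and 0.95. Mki67, the usual proliferation marker and named after its value was seen, was not called (0.84, 95% interval 0.17 to 1.5, adjusted p = 0.0902). BayTubes 17 and BayTubes 20, at 1.42 and 1.32 over Ctrl on average, lay nearer to the rCNT samples, at 1.72 to 2.06, than BayTubes 18 and 19 did, at 0.59 and 0.75. None of 16 p53 target genes was called by limma in the full fit (1 at an unadjusted p under 0.05), 2 were without BayTubes 17, and Cdkn1a, the cell cycle inhibitor p21, stood at a difference of 0.78 (95% interval -0.00 to 1.56).

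Circadian clock genes differed in both directions. Among the core genes called, BayTubes stood further from Ctrl for Arntl, Per2 and Nr1d2, and rCNT for Per1, Per3, Cry2 and Nr1d1. The averaged level of the core clock genes was -0.56 to -0.31 over Ctrl in the rCNT samples and 0.03 to 0.23 in the BayTubes samples. The BayTubes average mixes genes on both sides of Ctrl, such as Arntl and Per2 below. Arntl, the activator of the clock loop, measured 8.72, 9.54 and 9.14 with rCNT, 7.31, 6.99, 7.36 and 7.65 with BayTubes and 9.51 on average in Ctrl. It was 1.78 ± 0.20 higher with rCNT than with BayTubes (adjusted p = 1.63e-05), with BayTubes at -2.19 against Ctrl (adjusted p = 8.96e-07) and rCNT at -0.41 (adjusted p = 0.192). Per2, a repressor of the loop, measured 7.65, 8.39 and 8.44 against 9.70, 10.04, 10.01 and 9.97, with a Ctrl mean of 8.54. Its difference was -1.86 ± 0.21 (adjusted p = 1.69e-05), with BayTubes 1.43 over Ctrl and rCNT at -0.43. Per1 was 1.04 under Ctrl after rCNT (adjusted p = 0.000127) and 0.04 over Ctrl after BayTubes (adjusted p = 0.96). Per3 stood at -0.88 against Ctrl with rCNT and at 0.62 with BayTubes. Per3 and Cry2, also repressors, were lower with rCNT by 1.5 and 0.79, and the nuclear receptor Nr1d2, which represses Arntl, by 1.34. Nr1d1, its partner, was 1.27 lower (adjusted p = 0.0122) and was not called without rCNT 5 (-0.97, adjusted p = 0.0824) or rCNT 6 (-1.10, adjusted p = 0.0559). Of 11 core clock genes 6 were lower and 1 higher; Npas2, Cry1, Rora and the gene Clock were not called, at 0.26, -0.27, -0.64 and 0.53.

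Several output genes of the clock were lower as well. Dbp, an activator that binds the D-box, measured 12.90, 12.45 and 12.56 with rCNT and 14.79, 15.11, 14.75 and 14.15 with BayTubes, around a Ctrl mean of 13.75. All rCNT samples were below all BayTubes samples, with a difference of -2.08 ± 0.20 (adjusted p = 3.79e-06), and Ctrl lay between the groups. Its relatives Tef and Hlf were lower with rCNT by 1.56 and 1.5, and Ciart, a further repressor of the loop, by 0.82. Nfil3, which competes with them at the D-box, went the other way and was 1.27 ± 0.19 higher (adjusted p = 0.000259). Of 12 output and modulator genes 6 were lower and 1 higher, and leaving out any 1 sample gave 5 or 6 lower. The averaged level of the output genes was -0.03 to 0.06 over Ctrl in the rCNT samples and 0.42 to 0.50 in the BayTubes samples. The rCNT average mixes directions and does not place each gene at the Ctrl level. Against Ctrl after rCNT, Dbp stood at -1.11 (adjusted p = 0.00109), Hlf at -0.88 (adjusted p = 0.000994) and Nfil3 at 0.78 (adjusted p = 0.0103). The labels give a cycle of light and dark but no time of day for dosing or dissection, and the part of that time in these differences was not tested.

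**Figure D3:**
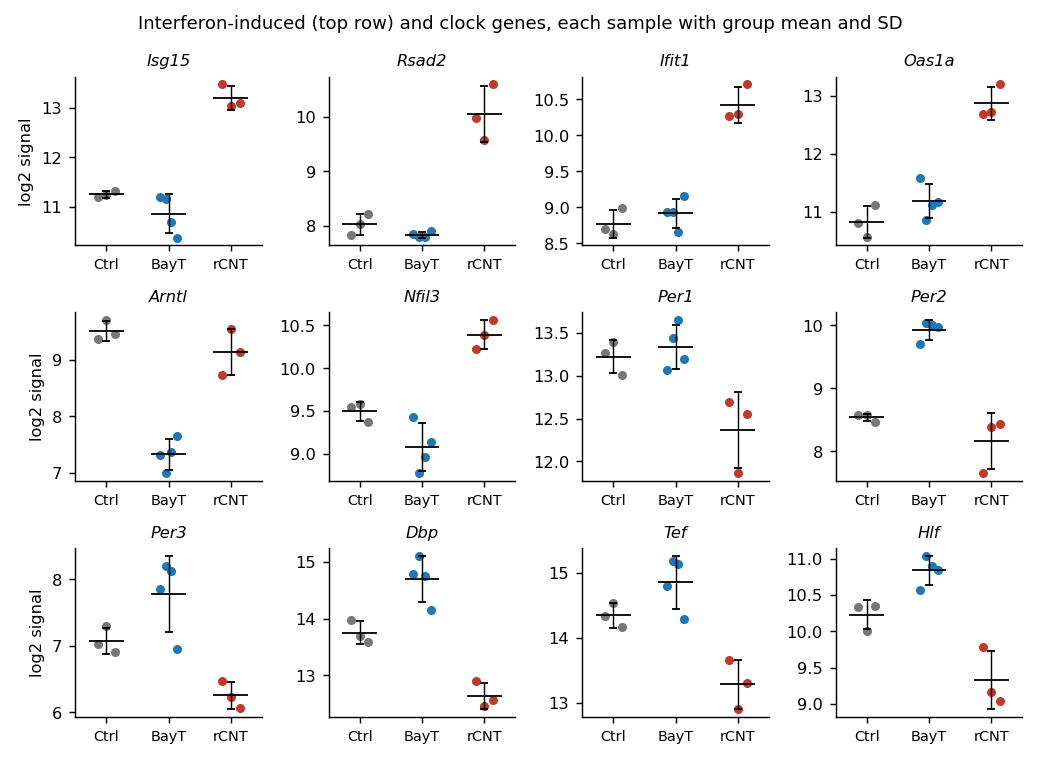
Log2 signal of 4 interferon-induced genes (Isg15, Rsad2, Ifit1, Oas1a) and 8 clock genes in each sample of Ctrl, BayTubes and rCNT, with the group mean (line) and SD (bar). The BayTubes samples sit at the Ctrl level for Rsad2, at 7.79 to 7.90 against a Ctrl mean of 8.03, and away from it for Arntl, at 6.99 to 7.65 against 9.51.

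The letters CACGTG (the E-box bound by ARNTL and CLOCK), TTANGTAA (the D-box) and TAGGTCA (the element bound by NR1D proteins), searched on both strands, were found in 6.02%, 2.06% and 2.23% of the same 32851 windows. Of the 14 called clock genes 12 were in the table, and 3 of them carried the E-box, 1 the D-box and 1 the third element. Of all 23 tested 20 were in the table, of which 5 carried the E-box, 1 the D-box and 1 the third element. E-boxes further away are not covered by this window. Those in the table for genes lower with rCNT are shown, with the element in capitals, to give the letters around each match.
Per1, chr11:69098749-69098948, plus strand, E-box: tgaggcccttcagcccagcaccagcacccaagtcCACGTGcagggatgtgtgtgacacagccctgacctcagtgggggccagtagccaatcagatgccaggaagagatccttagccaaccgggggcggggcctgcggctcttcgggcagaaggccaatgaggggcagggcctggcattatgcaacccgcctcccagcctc
Ciart, chr3:95882229-95882378, minus strand, E-box: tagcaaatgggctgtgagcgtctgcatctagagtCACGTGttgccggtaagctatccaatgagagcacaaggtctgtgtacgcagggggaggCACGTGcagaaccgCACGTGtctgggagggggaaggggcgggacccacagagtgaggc
Tef, chr15:81802513-81802672, plus strand, E-box: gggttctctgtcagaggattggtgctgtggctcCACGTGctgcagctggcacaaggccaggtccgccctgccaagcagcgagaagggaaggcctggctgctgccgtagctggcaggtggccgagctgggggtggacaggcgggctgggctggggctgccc
Per3, chr4:151044666-151044885, minus strand, D-box: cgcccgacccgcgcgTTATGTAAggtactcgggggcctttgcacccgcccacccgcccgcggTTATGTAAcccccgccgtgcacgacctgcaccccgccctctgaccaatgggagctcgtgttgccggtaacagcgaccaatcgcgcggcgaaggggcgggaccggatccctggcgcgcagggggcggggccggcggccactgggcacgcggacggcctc

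BayTubes were also set against tCNT, which shared dose, route, days of dosing and hours after the final dose with both. Only 15 genes differed (0.0907%), 7 higher (0.0423%) and 8 lower (0.0484%) with BayTubes, and 585 (3.54%) did at an unadjusted p under 0.05 in the same limma fit. Among the 15 were the clock genes Arntl, at -1.67, and Per2, Per1, Dbp and Hlf, at 1.31, 0.94, 1.02 and 0.84. For Arntl the tCNT samples measured 9.03, 8.69 and 9.14, near rCNT and Ctrl, and the BayTubes samples 6.99 to 7.65. So for the clock genes BayTubes stood apart from tCNT as well, and the count of 15 fell to 4 without BayTubes 19, 6 without BayTubes 18 and 7 without BayTubes 17. Against tCNT, rCNT differed in 1459 genes (8.83%). These contrasts share samples with the one above.

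Of the glucocorticoid-responsive genes tested, 7 of 14 were lower with rCNT and 1 was higher. Tsc22d3, the steroid-induced leucine zipper GILZ, measured 12.97, 12.50 and 12.84 with rCNT and 13.54, 14.16, 13.81 and 13.77 with BayTubes, whose values surround the Ctrl mean of 13.91. The difference was -1.13 ± 0.18 (adjusted p = 0.000377). Sult1a1, a sulfotransferase, was lower by 0.92. Of the 14 genes 3 were lower without BayTubes 19, BayTubes 20 or rCNT 5 and 4 without rCNT 4.

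Many enzymes that metabolise foreign compounds were lower with rCNT than with BayTubes. Of 27 tested 15 were lower and 1 higher, with a median of -0.64, and 9 were lower without rCNT 4 and 10 without BayTubes 19. Fmo2, the flavin monooxygenase of lung, measured 13.03, 12.84 and 12.31 with rCNT and 13.78, 14.32, 14.24 and 13.96 with BayTubes, a difference of -1.28 ± 0.22 (adjusted p = 0.000764). Ephx1, the microsomal epoxide hydrolase, and Cyp2f2, the main cytochrome P450 of club cells, were lower by 0.88 each. Pon1, a lactonase, was under Ctrl with both materials, by 2.46 after rCNT and 1.12 after BayTubes, and 1.34 lower with rCNT. Cyp1b1, the exception, was 1.15 ± 0.15 higher (adjusted p = 5.01e-05). The glutathione transferases split by gene: Gsta3, Gsta2 and Gstm1 were lower by 1.41, 1.18 and 1.02, while Gsto1, the omega class enzyme, was 0.83 higher. In all, 6 of 22 glutathione transferases were lower and 2 higher, with 3 lower without BayTubes 19. Scgb1a1, which marks the club cells that hold many of these enzymes, lay at 17.28 to 17.49 in all rCNT, BayTubes and Ctrl samples. That is near the top of the signal range, so its difference of -0.19 (95% interval -0.41 to 0.03, adjusted p = 0.243) does not measure the number of these cells.

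The 15 genes with the lowest called differences were of mixed kind, and 1 sample weighed on many of them. In 10 of the 15, rCNT 4 was the lowest sample. Selenbp1, a selenium-binding oxidase, measured 11.78, 15.06 and 13.55 with rCNT and 15.57 to 16.11 with BayTubes. The rCNT samples thus spread over more than 3 log2 units, and the difference of -2.21 ± 0.53 (adjusted p = 0.00939) became -1.73 (adjusted p = 0.0532) without rCNT 4. Txnip, an inhibitor of thioredoxin, overlapped between the groups, at 9.60, 13.20 and 12.13 against 13.17 to 14.13. Its difference of -1.89 was -1.24 without rCNT 4, -1.63 without BayTubes 19 and -1.92 without rCNT 6, none of them called (adjusted p = 0.146, 0.111 and 0.0543). Zfp931, a zinc finger gene, stood at -2.14 and was not called without rCNT 4 (-1.62), without BayTubes 19 (-2.04) or without rCNT 6. Plcb4, Lpar3, Cpeb1 and Adgrl3 showed the same pattern, with rCNT 4 at 5.60 to 7.37, and without it their differences of -1.62 to -1.73 became -1.08 to -1.29, not called. Graphite 16, which shared the array of rCNT 4, was low in the same genes. It measured 12.81 for Selenbp1, 7.45 for Zfp931, 11.22 for Txnip, 8.72 for Plcb4, 6.71 for Lpar3, 6.37 for Cpeb1 and 5.96 for Adgrl3, each below every Ctrl and BayTubes sample. With that whole array left out, Selenbp1, Zfp931 and Txnip kept their calls, at -1.60, -1.48 and -1.13 (adjusted p = 0.00325, 0.0176 and 0.0424), and the other 4 were not called, at -0.95 to -1.21. The calls of these 4 were also lost without BayTubes 18, BayTubes 19 or rCNT 6, at -1.38 to -1.73, that of Plcb4 without BayTubes 17 (-1.72) and that of Adgrl3 without BayTubes 20 (-1.54). Without rCNT 5, Plcb4, Lpar3 and Adgrl3 stood at -2.70, -2.61 and -2.46. By contrast, Dbp, Per2, Cxcr1, Tef, Fabp1, Spag11b (a defensin-like gene), Cys1 (cystin, a protein of cilia) and Gm10639 kept their calls with any 1 sample left out. Of the 835 lower genes, 19 had an SD above 1 among the rCNT samples, and rCNT 4 was the lowest in all 19. A further 182 genes had differences below -1 without being called, with rCNT 4 the lowest rCNT sample in 173 of them, against 29 uncalled genes above 1.

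**Figure D4:**
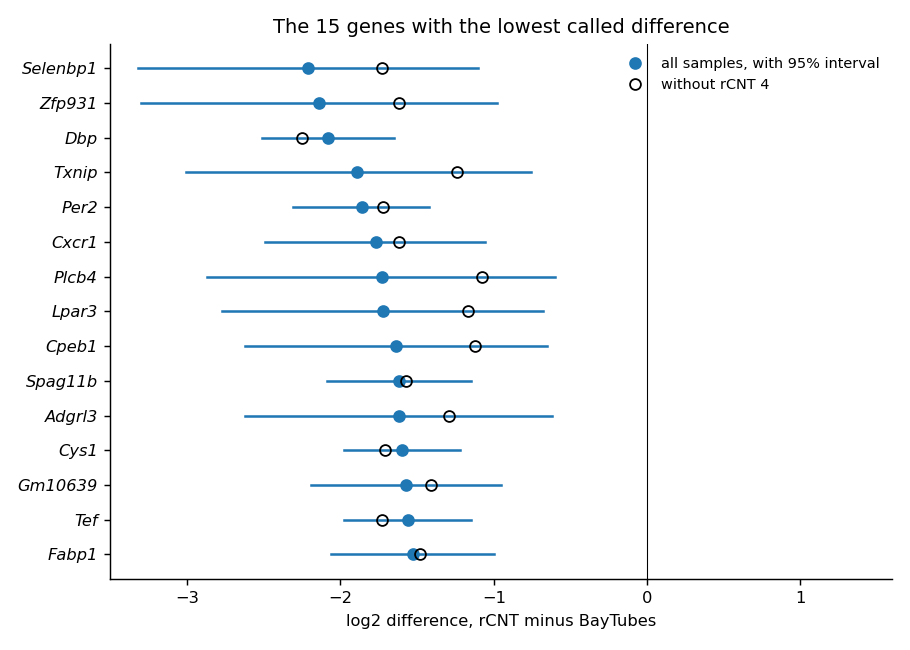
Log2 difference, rCNT minus BayTubes, of the 15 genes with the lowest called differences, with 95% intervals (filled points, all samples) and without rCNT 4 (open points). The open points of Selenbp1, Zfp931, Txnip, Plcb4, Lpar3, Cpeb1 and Adgrl3 lie nearer to 0, and those of Dbp and Tef further from it.

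The sample rCNT 4 lay apart from the other rCNT samples in general. Its residual SD over all genes was 0.495, the highest of the 24 samples, and the sample that shared its array, Graphite 16, followed at 0.43, against 0.313 for rCNT 5, 0.251 for rCNT 6 and 0.173 to 0.266 in the BayTubes samples. Without rCNT 4, 1688 genes were called, 1201 higher and 487 lower, and without its whole array 1671, 1176 higher and 495 lower. The count of lower genes thus depended more on this sample than the count of higher genes. Among the 1322 higher genes, rCNT 4 was the rCNT sample nearest to BayTubes in 48.6% and rCNT 6 in 13.8%. On the other side, BayTubes 17 was the nearest to rCNT in 43.9% of the higher and 51.6% of the lower genes, and BayTubes 20 in 38.9% and 38.6%.

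Genes of fibroblasts and matrix differed in both directions. Spon2, a secreted matrix protein and marker of a lung fibroblast subset, had the smallest p of the genes tested, with 11.10, 11.44 and 11.03 with rCNT and 8.81, 8.70, 8.50 and 8.97 with BayTubes. Its difference was 2.37 ± 0.16 (adjusted p = 8.37e-08), and the Ctrl mean of 10.57 lay between the groups, with BayTubes 1.81 under it (adjusted p = 8.96e-07) and rCNT 0.56 over it (adjusted p = 0.0241). Spon2 was also among the 15 genes that set BayTubes apart from tCNT, at -1.45. Other fibroblast genes, Fgfr4, a growth factor receptor, Limch1, an actin regulator, and Inmt, a methyltransferase, were lower with rCNT by 0.79, 0.67 and 0.89. Of 15 lung fibroblast markers 4 were lower, 2 higher and 9 not called, with a median of -0.16. Their averaged levels over Ctrl overlapped, at -0.45 to -0.35 in the rCNT samples and -0.50 to -0.27 in the BayTubes samples. Timp1, the inhibitor of metalloproteinases, was 2.23 ± 0.43 higher (adjusted p = 0.002) and Adamts4, which cuts proteoglycans, 2.14 ± 0.29 higher (adjusted p = 9.78e-05). Vcan, the proteoglycan versican, and Has2, a hyaluronan synthase, were higher by 1.13 and 0.86, the latter from a dim signal. Of 18 proteases and inhibitors 8 were higher and 1 lower, and of 23 matrix and fibrosis genes 6 were higher and 1 lower, with 2 higher without BayTubes 19.

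The endothelial and alveolar type 1 markers called were all lower with rCNT, and other epithelial lists held genes that were higher. Of 12 alveolar type 1 markers 3 were lower, among them the channel Clic5 by 0.72, and 1 was lower without rCNT 4 or BayTubes 19. The averaged level of the list was -0.64 to -0.55 over Ctrl with rCNT and -0.42 to -0.10 with BayTubes. Of 22 endothelial markers 6 were lower and none higher, with 1 lower without BayTubes 19 and 3 without BayTubes 18 or rCNT 4. Over all genes tested, 5.05% were lower. With only the groups compared in the fit, limma called none of the alveolar type 1 or endothelial markers. Ramp2, which pairs with the adrenomedullin receptor, was lower by 0.62 ± 0.14 (adjusted p = 0.00545). Among ciliated cell markers, Foxj1, the master factor of motile cilia, was 1.30 ± 0.18 higher (adjusted p = 0.000122), at 11.28 to 11.38 against 9.73 to 10.31. Of 21 ciliated cell markers, Foxj1 was the only one higher and 1 was lower, and their averaged level was 0.45 to 0.49 over Ctrl with rCNT and 0.31 to 0.46 with BayTubes.

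A few genes rose over Ctrl by amounts that did not differ by the test between the materials, and these were named after their values were seen. Ctsk, the collagen-cleaving protease cathepsin K, measured 13.20, 12.88 and 13.40 with rCNT and 13.31, 12.52, 12.71 and 12.74 with BayTubes, over a Ctrl mean of 10.96. The materials differed by 0.21 (95% interval -0.37 to 0.79), against rises of 1.98 and 1.77. Ccno, a cyclin of early ciliated cells, rose by 1.85 and 1.59, with a difference of 0.27 (95% interval -0.14 to 0.67). The intervals leave room for differences of up to 0.79 and 0.67, so the values do not show that the materials acted alike.

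**Figure D5:**
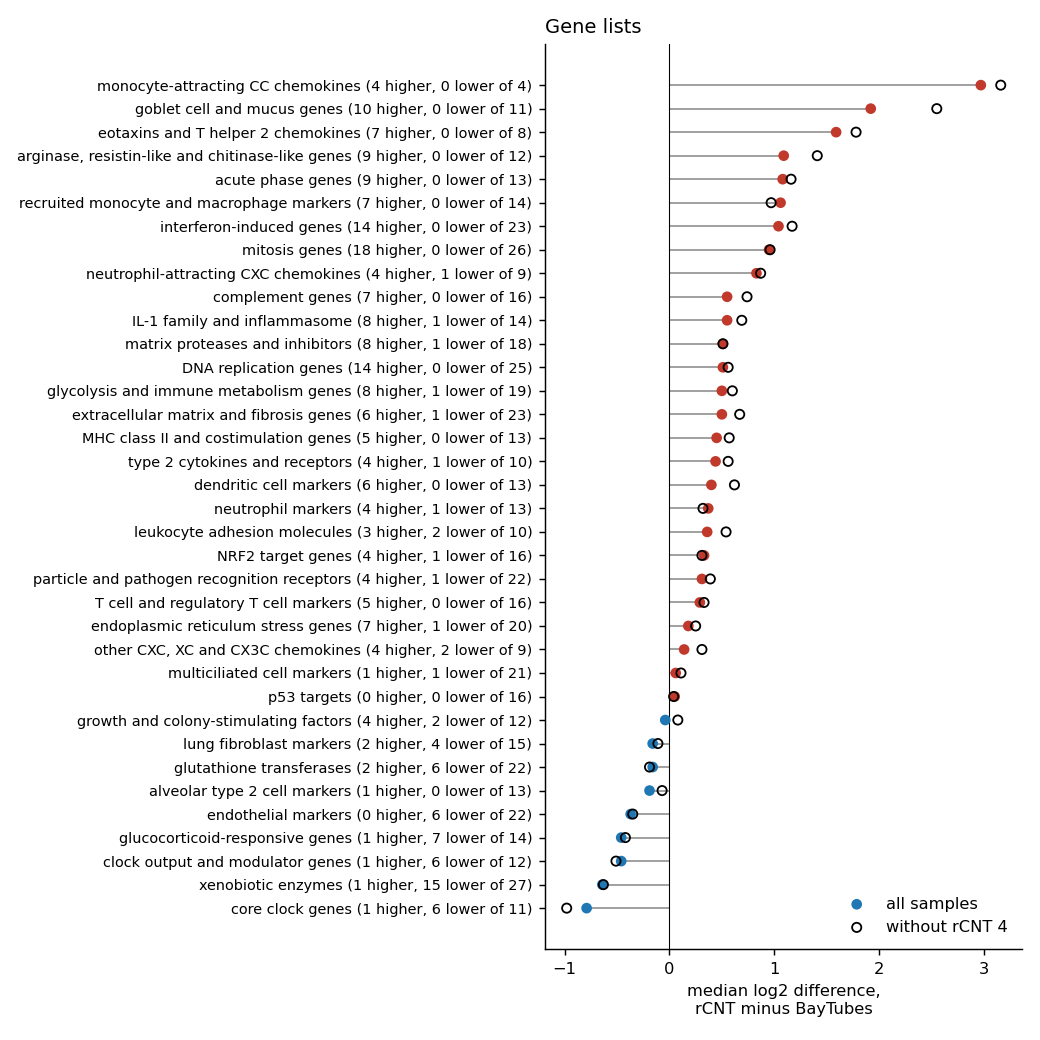
Median log2 difference, rCNT minus BayTubes, of a selection of the 58 gene lists, over the genes tested in each, with all samples (filled points) and without rCNT 4 (open points) and with the numbers of members called higher and lower. The monocyte chemokines lie furthest to the right, at 2.97, and the core clock genes furthest to the left, at -0.79.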

How the data were processed

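Lung RNA was measured in 24 samples on 12 Agilent 2-colour arrays, 1 sample in each dye, and the arrays lay on 3 slides. The authors deposited log2 signals, 1 per spot and sample, and per the submitters' processing notes they used Agilent Feature Extraction and limma, without versions. Between samples, the sorted deposited values differed by no more than 0.086, so the samples share a distribution. Background correction and genome build are not given in the sources used here. Arrays carry no counts, and precision depends on how many samples there are.

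The platform table names a gene for 31465 of 62976 spots, and names were updated through a RefSeq table (GRCm38.p6): 29036 by accession, 2075 by symbol, 349 by synonym and 5 unchanged. A gene was kept if at least 3 samples were above their 40th percentile (5.69 to 5.75, the detection filter), and its brightest spot on average was used, for 16530 of 20738 genes. With other bright spots of genes that differed by over 1 log2 unit, 97.4% of 191 spots had the same sign.

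Differences come from a limma fit (version 3.58.1, with statmod 1.5.0, in R 4.3.3) to all 24 samples, with group and dye as terms, and samples of an array correlated at 0.399 as a random block. Variances were moderated with 3.54 prior beside 16 residual degrees of freedom. All tests are 2-sided. A gene was called at a Benjamini-Hochberg adjusted p under 0.05, adjusted over the 16530 genes of the comparison. The fit was tested on simulated data. Each value is a pool of 2 mice, per the labels. An averaged level of a list is the mean over its tested genes of the log2 signal minus the Ctrl mean.

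The naming rule takes the 15 called genes with the highest and the 15 with the lowest difference, the 4 members of each of 58 gene lists with the smallest p that passed (2 where none passed), and members of short lists set side by side. The text names 124 of these and others, of which Ifit1, Oas1a, Mki67, Ctsk, Ccno and the lung markers Sftpc and Scgb1a1 lie outside that rule. Members, lists and rule were chosen with earlier results of these data known. Alternatives changed the dye term, array block, slide, filter, normalization, spots, variance prior, sample weights, threshold and the samples in the fit. Spots without a gene name were tested apart.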

Additional observations from a re-analysis of the deposited data

Results flagged for a closer look

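In 10 of the 124 genes named, 1 of the 4 BayTubes samples lay far from the other 3, its gap to the nearest being a larger share of the group's range than Dixon's 95% critical value for 4 samples. Chance alone flags about 1 group in 20. In 5 of the 10 it was BayTubes 17. Clca1 was at 12.51 there against 10.29 to 10.58 in the other BayTubes samples, Muc5ac at 8.78 against 7.47 to 7.65 and Itln1 at 8.52 against 5.54 to 5.97. These goblet cell genes were high in that sample, while the club cell enzyme gene Cyp2f2, at 16.20 against 16.42 to 16.46, and the endothelial gene Ramp2, at 15.35 against 15.69 to 15.75, were low. All 5 values of BayTubes 17 lay on the side of the rCNT samples. In BayTubes 20, Il33 was at 12.68 against 12.11 to 12.21, Fbp1 at 7.40 against 7.09 to 7.11 and the gene Clock at 9.32 against 8.63 to 8.66. In BayTubes 18, Cxcl2 was at 5.19 against 5.55 to 5.63 and Saa2 at 5.56 against 6.24 to 6.34.

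Among 16650 spots without a gene name, which the comparisons do not use, 258 differed between rCNT and BayTubes, 150 higher and 108 lower with rCNT.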

How the results depend on the processing

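The rCNT and BayTubes contrast gave 2157 genes, 1322 higher and 835 lower, and the counts for rCNT and for BayTubes against tCNT were 1459 and 15. Given as changed, higher and lower, the contrast gave 46, 35 and 11 with array as a fixed term (12 and 2 against tCNT), 317, 248 and 69 with only the groups compared (55 and 1), 3958, 2460 and 1498 with sample weights (54 for BayTubes against tCNT), 1193, 803 and 390 at 1.5-fold or more (866 for rCNT against tCNT) and 910, 631 and 279 at an adjusted p under 0.01 (501 and 5). Within slide 1 it gave 4089, with 2356 lower (3275 and 0 against tCNT), within slide 2 1342, with 764 higher, and with slide as a term 1564 lower. Without the array block BayTubes differed from tCNT in 4 genes, and with the array that rCNT 4 shared with Graphite 16 left out the lower count was 495. Leaving out each of the 7 samples in turn gave 986 to 2597 genes changed, 692 to 1417 higher and 294 to 1285 lower, 989 to 2153 for rCNT against tCNT and 4 to 18 for BayTubes against tCNT. No called gene named here changed direction under any alternative. Among those not called, Ear6 became -0.23 and Ccno -0.14 with array as a fixed term, Cdkn1a -0.09 within slide 2, and Sftpc 0.04 within slide 1. With each sample left out in turn Sftpc ranged from -0.46 to 0.02, the highest value without rCNT 5. Dropping the filter, cyclic loess, centring on the 75th percentile, averaging spots and slide as a term kept all 113 named calls, and the 60th percentile filter kept the 108 it still tested. No paired analysis was possible because no replicate number is shared between groups. With 3 and 4 pools on 3 slides, precision rests on the few samples, and signals under the detection filter have uncertain fold sizes.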
